A study of Mus musculus with 12 samples.

Results

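The Trim5, Trim12 and Trim30 cluster of mouse chromosome 7 is a run of neighbouring genes for tripartite motif (TRIM) proteins, and several of its genes are near-identical copies of each other. It was taken here as 9 genes, found by matching the Ensembl gene IDs of the deposited counts to the symbols Trim6, Trim34a, Trim5, Trim12a, Trim12c, Trim30b, Trim30c, Trim30a and Trim30d. All 9 were present among the 52636 genes in the files, and 9 of 9 passed the filter on low counts. In the mouse genome build GRCm38 they lie on chromosome 7 between bases 104218793 and 104507849, a span of 289 kb. Trim34b lies between Trim12a and Trim12c and is a copy of Trim34a. It is not one of the 9 and is shown beside Trim34a, and it is otherwise counted among the other TRIM genes and the neighbours. The cluster was chosen by the counts of Trim12a, which stood out between the genotypes in untreated tumours, so the untreated values below are a description with no test.

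TRIM proteins carry a RING domain that attaches ubiquitin to other proteins. Many of them are switched on by interferon and act in the defence against viruses, and primate TRIM5 is known for binding the capsid of retroviruses inside the cell. The mouse cluster holds copies related to that gene (Trim5, Trim12a and Trim12c), the rodent Trim30 genes, and the neighbours Trim34a and Trim6. In mouse macrophages Trim30a is known to restrain NF-kappaB signalling by promoting the loss of the adaptor proteins TAB2 and TAB3.

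The tissue was tumour from KPC mice, which develop pancreatic ductal adenocarcinoma from engineered alleles, and each library is the tumour of 1 mouse. The groups, of 3 mice each, were KPC/CDH11+/- given gemcitabine, KPC/CDH11+/+ given gemcitabine, KPC/CDH11+/- untreated and KPC/CDH11+/+ untreated. They are called heterozygous and wild-type below, and gemcitabine is a nucleoside drug used against pancreatic cancer. Cdh11 encodes cadherin 11, an adhesion protein of mesenchymal cells, and the design asks how losing 1 allele of it changes tumour RNA with and without the drug. All 12 mice share the KPC alleles and a strain background labelled C57BL/6; 129, with no proportion given for any mouse. The labels do not say which Cre line or which cells carry the KPC alleles, nor the age, dose or schedule. They do not say whether the mice of a group shared a litter.

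Libraries held between 39388328 and 56559413 counts (median 45785246). The targeted gene Cdh11 did not separate the genotypes under gemcitabine, with 78.6 to 154 CPM (counts scaled to a library total of 1000000) in heterozygous and 57.3 to 144 CPM in wild-type tumours. Without the drug it was 75.8 to 147 CPM in heterozygous and 148 to 302 CPM in wild-type tumours. The labels give no sex, but Xist, which is expressed from the inactive X chromosome, was at 0.590 to 1.22 CPM in the 3 heterozygous gemcitabine tumours and at 1220 to 3395 CPM in the 3 wild-type gemcitabine tumours. Genotype and sex-chromosome genes therefore cannot be told apart among the treated tumours alone. Among untreated tumours, Xist was high in heterozygous mouse 1 and in wild-type mice 1 and 3.

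Trim12a, Trim12c and Trim5 differ at few bases, which decides how well reads can be assigned to them. The first 240 coding bases of each, from GENCODE M21 transcripts, are shown 5′ to 3′ because they give the spacing of the differences that a read must cover. Capitals mark the 13 positions at which the 3 genes are not all alike.

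Trim12a: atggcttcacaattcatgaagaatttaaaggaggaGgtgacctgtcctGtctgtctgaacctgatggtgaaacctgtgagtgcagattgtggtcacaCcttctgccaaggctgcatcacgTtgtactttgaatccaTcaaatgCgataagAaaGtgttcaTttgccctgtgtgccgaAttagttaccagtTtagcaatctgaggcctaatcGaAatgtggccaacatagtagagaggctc
Trim12c: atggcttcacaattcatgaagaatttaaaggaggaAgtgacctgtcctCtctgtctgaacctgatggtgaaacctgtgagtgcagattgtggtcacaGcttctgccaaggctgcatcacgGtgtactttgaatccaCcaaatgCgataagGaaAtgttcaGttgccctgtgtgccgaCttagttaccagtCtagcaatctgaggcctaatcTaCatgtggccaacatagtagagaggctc
Trim5: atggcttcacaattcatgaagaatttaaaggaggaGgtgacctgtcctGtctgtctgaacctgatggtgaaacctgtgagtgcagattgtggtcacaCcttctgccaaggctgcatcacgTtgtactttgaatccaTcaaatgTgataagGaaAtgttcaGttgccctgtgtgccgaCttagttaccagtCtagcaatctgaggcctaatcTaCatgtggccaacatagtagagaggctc

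In this stretch Trim12c differed from Trim12a at 12 bases and Trim5 differed from Trim12a at 8. Over the coding sequence, Trim12a and Trim12c were identical at 96.4% of 891 aligned bases, Trim12a and Trim5 at 97.1% of the same length, and Trim12c and Trim5 at 96.6% of 1491. The Trim12a coding sequence is 891 bases long, against 1491 in Trim12c and in Trim5. Trim30a and Trim30d were identical at 90.1%, and the other pairs among the Trim30 genes at 79.1% to 83.8%. Trim34a and Trim34b were identical at 97.6%. What this means for reads depends on their length, which was not used here, and windows of 75 bases are given first. Of the distinct 75-base windows in the protein-coding transcripts, 12.04% for Trim12a, 15.2% for Trim12c and 16.8% for Trim5 also occurred in another gene of the cluster. With windows of 50 bases these shares were 20.8%, 28.7% and 29.5%, and with 100 bases 7.10%, 8.03% and 9.73%. With 75 bases the share was 5.44% for Trim30a, 5.40% for Trim30d, 0.0801% for Trim30b and 0 for Trim30c and Trim6. For Trim34a it was 29.5%, all of it shared with Trim34b, which is not a cluster gene here. Against any gene, the 75-base share was 48.6% for Trim34a, which also matched Gm47248, 20.6% for Trim5 and 17.3% for Trim12c. It did not change for Trim30d or Trim30c. Some windows thus also occur in genes that the sums of copies below leave out. RSEM, the tool behind the deposited counts, divides a read that matches several copies by estimated shares, so the split between copies is less certain than their sum. The reference transcripts are those of C57BL/6, and whether strain differences in these mice moved reads between copies was not tested.

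Trim12a was assigned few counts in every wild-type tumour and many in every heterozygous one. These are counts as RSEM divided them among the copies, and the sum of Trim12a, Trim12c and Trim5, given below, differed far less. How much of the Trim12a difference lies in that division was not tested. This gene (ENSMUSG00000066258, chr7:104299894-104315466, minus strand, protein coding) is a rodent relative of primate TRIM5 with a shorter coding sequence. Under gemcitabine it had 431, 474 and 481 counts in heterozygous mice 1, 2 and 3, against 14, 4 and 7 counts in wild-type mice 1, 2 and 3. In untreated tumours it had 398, 778 and 1018 counts in heterozygous mice, against 7, 16 and 6 counts in wild-type mice. The lowest of the 6 heterozygous libraries was thus far above the highest of the 6 wild-type ones. As levels, Trim12a was at 10.4 ± 1.64 CPM in heterozygous and 0.185 ± 0.114 CPM in wild-type gemcitabine tumours (SD, n = 3 each). In untreated tumours it was at 15.2 ± 6.12 CPM in heterozygous and 0.218 ± 0.154 CPM in wild-type mice (SD, n = 3 each).

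The genotype comparison under gemcitabine is the one that was tested, across all 24065 genes that passed the filter. Trim12a rose in heterozygous tumours by 5.67 ± 0.57 on the log2 scale (SE, 95% interval 4.41 to 6.93, 50.9-fold), with an adjusted p of 0.0167 by edgeR's quasi-likelihood test with Benjamini-Hochberg adjustment. It was the only gene called among the 24065, which is 0.00416% of them, so 1 of the 9 cluster genes was called against that background. An unadjusted p under 0.05 was reached by 7.55% of all genes. DESeq2, another count model, called 234 genes, 0.972% of all, among them 3 of the 9, Trim12a, Trim5 and Trim30d. The size of the difference changed less than the call. Leaving out any 1 of the 12 libraries kept the log2 fold change between 5.35 and 6.21. The adjusted p was then 0.0521 without heterozygous gemcitabine mouse 2, 0.0566 without heterozygous untreated mouse 2, 0.0620 without heterozygous gemcitabine mouse 1 and 0.0714 without heterozygous gemcitabine mouse 3. It was 0.140 without wild-type gemcitabine mouse 2 and 0.300 without wild-type gemcitabine mouse 3, and it stayed between 0.00949 and 0.0474 without any of the other 6. With the summed Y-linked level as a covariate the log2 fold change was 4.28 and the edgeR adjusted p 1.0. That level was 0.514 to 0.729 CPM in wild-type and 282 to 506 CPM in heterozygous gemcitabine tumours. The slope of the covariate therefore rests largely on the untreated tumours. Among their wild-type mice only mouse 2 was high, at 217 CPM. Treated values with this covariate, here and below, do not separate sex-chromosome genes from genotype. In untreated tumours the Trim12a contrast without the covariate was 6.15 ± 0.58 (SE), given as a description.

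High and low Xist did not follow the genotype in every untreated mouse, and the counts by Xist level are given as a description. Among the 6 libraries with high Xist, Trim12a had 398 counts in the single heterozygous one and 4 to 14 counts in the 5 wild-type ones. Among the 6 with low Xist it had 431 to 1018 counts in the 5 heterozygous ones and 16 counts in the single wild-type one. Each set rests on 1 library in one of its genotypes, and both of those libraries are untreated ones, whose Trim12a counts chose the cluster. The part of sex-chromosome genes in the difference is not decided by these values.

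**Figure D1:**
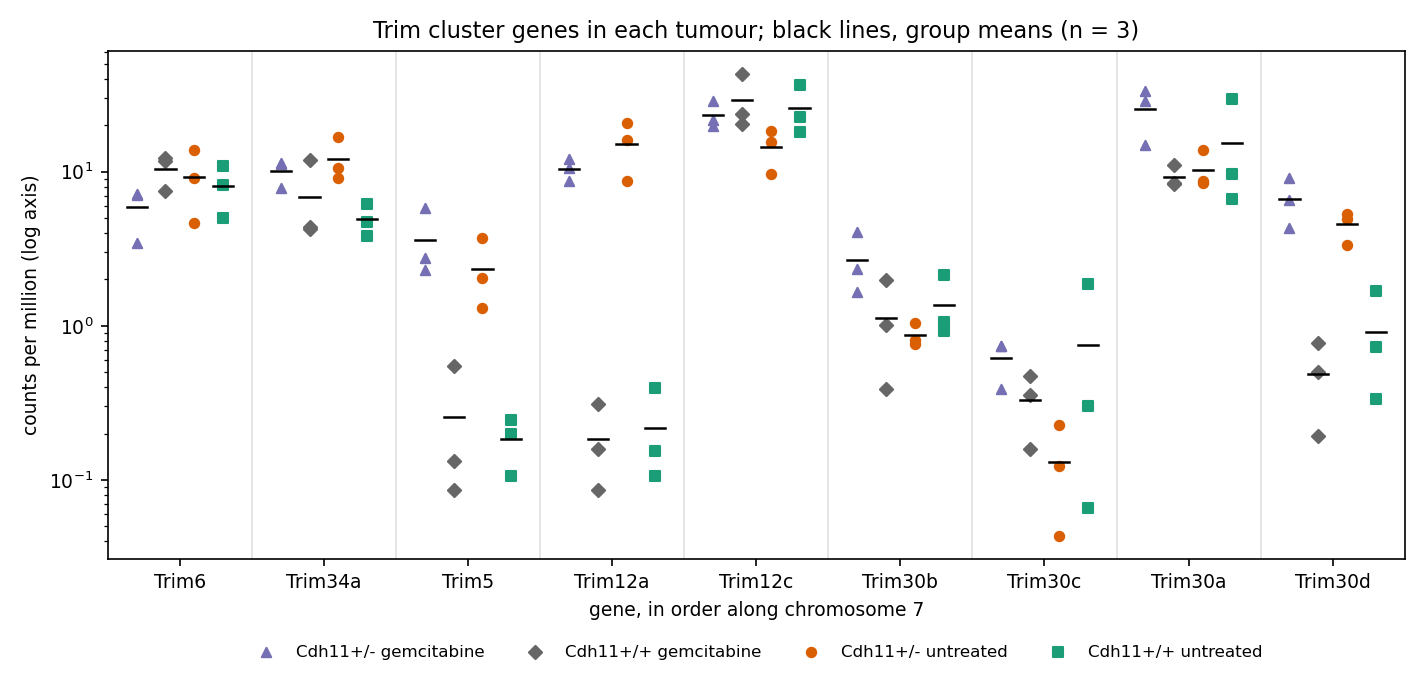
CPM of the 9 cluster genes on a log axis, genes in their order along chromosome 7, with 1 point per tumour and a black line at each group mean (n = 3). Trim12a lay between 8.67 and 20.8 CPM in heterozygous tumours and between 0.0857 and 0.394 CPM in wild-type tumours, and Trim5 and Trim30d were also higher in every heterozygous tumour.

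Trim5, the mouse gene that carries the name of the primate restriction factor, followed the same pattern at a lower level (ENSMUSG00000060441, chr7:104263386-104288094, minus strand). It had 113, 109 and 264 counts in heterozygous gemcitabine tumours, against 6, 4 and 24 counts in wild-type gemcitabine tumours. The untreated counts were 60, 99 and 181 in heterozygous mice, against 9, 10 and 6 in wild-type mice. No heterozygous library was as low as any wild-type one. The treated log2 fold change was 3.66 ± 0.71 (SE) with an adjusted p of 0.544 in the edgeR fit, which ranked it 13 of 24065 by p. The untreated value was 3.67 ± 0.72 (SE).

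Trim12c, the copy that in mouse cells is known to act with TRAF6 in interferon and NF-kappaB signalling, had fold changes below 0 (ENSMUSG00000057143, chr7:104338754-104353362, minus strand). It had 1060, 776 and 1320 counts in heterozygous gemcitabine tumours, against 1075, 950 and 1893 counts in wild-type gemcitabine tumours. Without the drug it had 848, 465 and 761 counts in heterozygous mice, against 1026, 1483 and 1023 counts in wild-type mice. As CPM the groups overlapped in both comparisons, at 19.7 to 28.9 CPM in heterozygous and 20.4 to 43.2 CPM in wild-type gemcitabine tumours, and at 9.61 to 18.5 CPM in heterozygous and 18.1 to 36.5 CPM in wild-type untreated tumours. The log2 fold changes were -0.46 ± 0.34 under gemcitabine (edgeR adjusted p = 0.850) and -0.81 ± 0.34 without it (SE).

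Because these 3 genes can exchange reads, their division was followed directly. Trim12c held nearly all of the counts of the 3 in wild-type tumours, and in heterozygous tumours Trim12a held a large part of them. Trim12a held 26.9%, 34.9% and 23.3% of the summed counts in heterozygous gemcitabine mice 1, 2 and 3, against 1.28%, 0.418% and 0.364% in wild-type gemcitabine mice. The exact (Clopper-Pearson) 95% interval of the lowest heterozygous share ran from 21.5% to 25.2%, and that of the highest wild-type share from 0.701% to 2.14%. Such intervals cover counting error only. In untreated tumours Trim12a held 30.5%, 58.0% and 51.9% in heterozygous mice, against 0.672%, 1.06% and 0.580% in wild-type mice. Trim12c held 62.4 ± 4.69% in heterozygous and 98.6 ± 0.521% in wild-type gemcitabine tumours, and 46.1 ± 16.4% in heterozygous and 98.5 ± 0.287% in wild-type untreated tumours (SD, n = 3 each). Trim5 held 9.28 ± 3.07% in heterozygous and 0.738 ± 0.446% in wild-type gemcitabine tumours, and 7.07 ± 2.34% in heterozygous and 0.702 ± 0.146% in wild-type untreated tumours (SD, n = 3 each). For each of the 3 treated shares, the exact two-sided permutation test gave p = 0.1, the smallest that 3 mice against 3 allow.

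The sum of the 3 copies showed far less. It was 1604, 1359 and 2065 counts in heterozygous gemcitabine tumours, against 1095, 958 and 1924 counts in wild-type gemcitabine tumours. In untreated tumours the sum was 1306, 1342 and 1960 counts in heterozygous mice, against 1042, 1509 and 1035 counts in wild-type mice. The groups overlapped in both comparisons. Fitted as 1 row in place of its copies, the sum had a treated log2 fold change of 0.19 ± 0.31 (SE, 95% interval -0.48 to 0.86, edgeR adjusted p = 0.959), and -0.31 with the Y-linked covariate. The untreated value was 0.30 ± 0.31 (SE). The interval leaves room for a difference of up to 0.86 and does not show that the sums are alike.

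**Figure D2:**
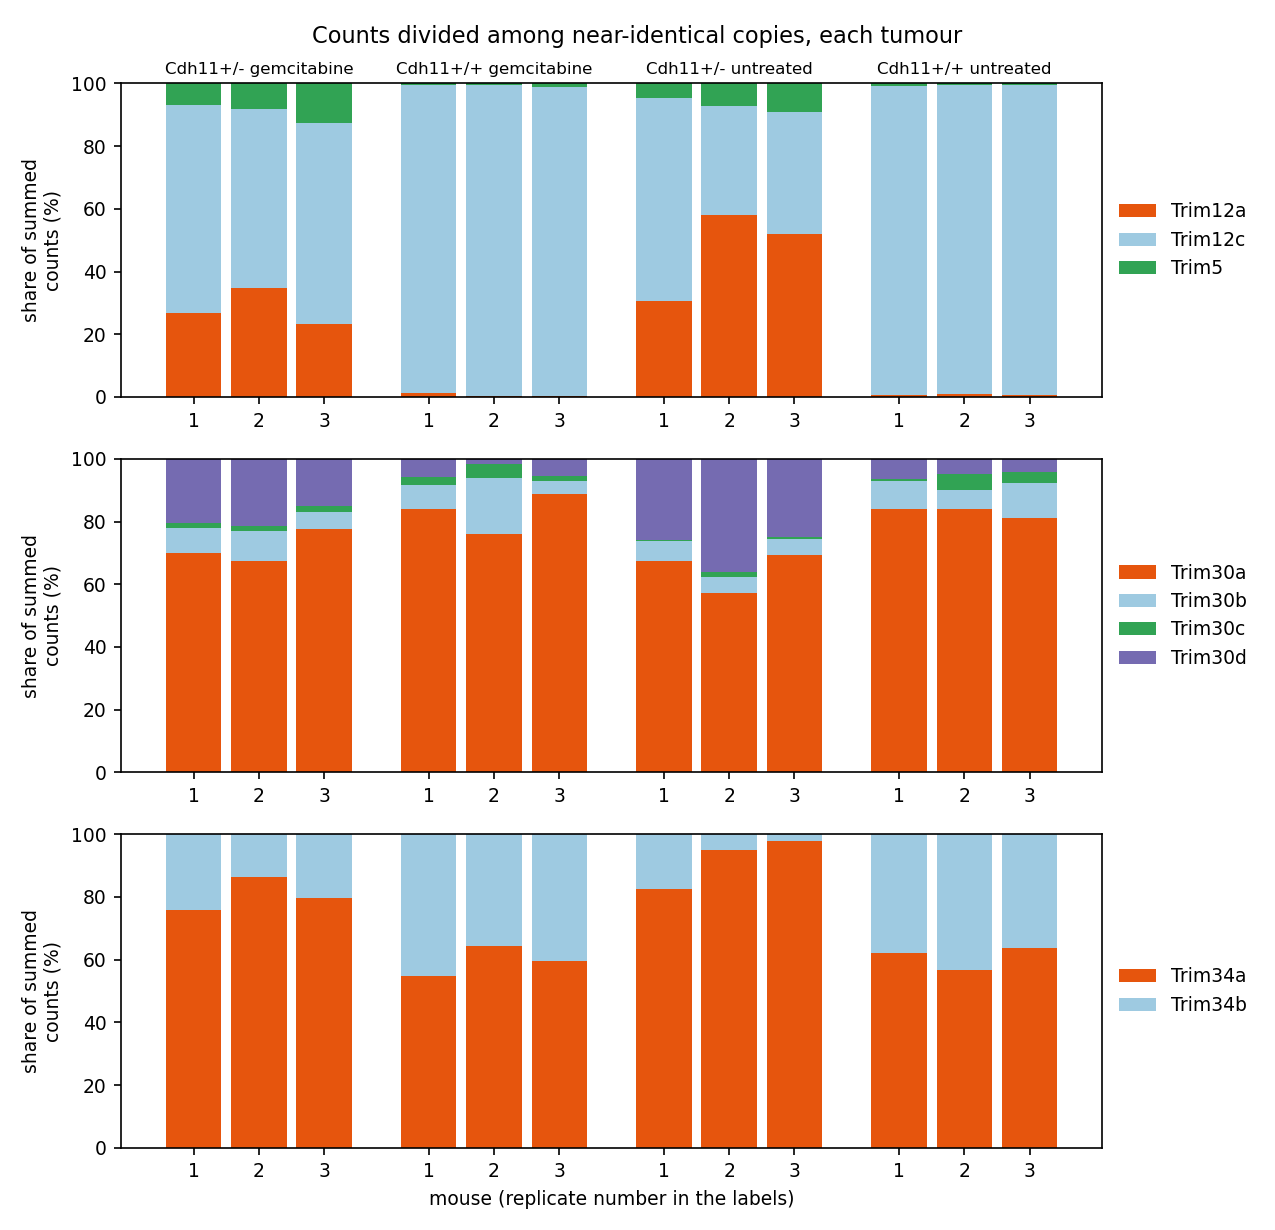
Share of the summed counts held by each copy in every tumour, as stacked bars from 0 to 100%, for Trim12a, Trim12c and Trim5 (top), the 4 Trim30 genes (middle) and Trim34a with Trim34b (bottom). In heterozygous tumours Trim12a held 23.3% to 58.0% of its family and Trim30d 15.2% to 36.1%, against at most 1.28% and 6.35% in wild-type tumours.

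The Trim30 genes made up the other large family. Trim30a, the member with the known role in NF-kappaB signalling, was its most abundant gene (ENSMUSG00000030921, chr7:104409025-104465193, minus strand). It had 734, 1126 and 1530 counts in heterozygous gemcitabine tumours, against 504, 394 and 365 counts in wild-type gemcitabine tumours. In untreated tumours it had 399, 408 and 678 counts in heterozygous mice, against 436, 1206 and 378 counts in wild-type mice. The treated groups did not overlap and the untreated groups did, with wild-type untreated mouse 2 far above the others of its group. The log2 fold change was 1.31 ± 0.46 under gemcitabine (SE, edgeR adjusted p = 0.572) and -0.53 ± 0.46 without it. With the Y-linked covariate the treated value was 0.16. Whether the difference between these values exceeds the error was not tested.

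Trim30d, at the far end of the cluster, separated the libraries as Trim12a did (ENSMUSG00000057596, chr7:104470014-104507849, minus strand). It had 213, 359 and 299 counts in heterozygous gemcitabine tumours, against 35, 9 and 22 counts in wild-type gemcitabine tumours. The untreated counts were 154, 258 and 243 in heterozygous mice, against 33, 68 and 19 in wild-type mice. All 6 heterozygous libraries were above all 6 wild-type ones. The treated log2 fold change was 3.63 ± 0.61 (SE, edgeR adjusted p = 0.467), rank 3 of 24065 by p, and the untreated one 2.37 ± 0.57. With the Y-linked covariate the treated value was 2.39.

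Trim30b and Trim30c were scarce. Trim30b had 81, 160 and 107 counts in heterozygous gemcitabine tumours, against 46, 93 and 17 counts in wild-type gemcitabine tumours, and the groups overlapped. Without the drug it had 37, 37 and 51 counts in heterozygous mice, against 48, 87 and 52 counts in wild-type mice. Its log2 fold changes were 1.07 ± 0.56 under gemcitabine (edgeR adjusted p = 0.739) and -0.64 ± 0.56 without it (SE). Trim30c had 19, 29 and 34 counts in heterozygous gemcitabine tumours, against 16, 22 and 7 counts in wild-type gemcitabine tumours. Untreated, it had 2, 11 and 6 counts in heterozygous mice, against 3, 76 and 17 counts in wild-type mice. Its log2 fold changes were 0.75 ± 0.93 under gemcitabine (edgeR adjusted p = 0.941) and -2.40 ± 0.99 without it (SE), at counts too low for a firm value, and the treated one was -2.32 with the Y-linked covariate. The pseudogene Trim30e-ps1, just beyond the cluster, had 1 count in 1 of the 12 libraries.

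Within the family, Trim30d held 20.3%, 21.4% and 15.2% of the Trim30 counts in heterozygous gemcitabine mice, against 5.82%, 1.74% and 5.35% in wild-type gemcitabine mice. Trim30d held 26.01%, 36.1% and 24.8% in heterozygous untreated mice, against 6.35%, 4.73% and 4.08% in wild-type untreated mice. Trim30a held 71.7 ± 5.38% in heterozygous and 82.9 ± 6.43% in wild-type gemcitabine tumours (SD, n = 3 each). The exact two-sided permutation p of the treated shares was 0.1 for Trim30d, again the smallest possible, and 0.2 for Trim30a, 0.9 for Trim30b and 0.4 for Trim30c.

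The Trim30 sum was 1047, 1674 and 1970 counts in heterozygous gemcitabine tumours, against 601, 518 and 411 counts in wild-type gemcitabine tumours, with no overlap. In untreated tumours the Trim30 sum was 592, 714 and 978 counts in heterozygous mice, against 520, 1437 and 466 counts in wild-type mice. The treated log2 fold change was 1.51 ± 0.45 (SE, 95% interval 0.53 to 2.49), but it was not called (edgeR adjusted p = 0.548), and with the Y-linked covariate it was 0.31. The untreated value was -0.17 ± 0.44 (SE), and 0.63 without wild-type untreated mouse 2.

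At the other end lie Trim34a and Trim6. TRIM34 is interferon-inducible and in human cells acts with TRIM5 against some lentiviral capsids. Trim34a (ENSMUSG00000056144, chr7:104244457-104262234, plus strand) had 386, 440 and 517 counts in heterozygous gemcitabine tumours, against 193, 205 and 526 counts in wild-type gemcitabine tumours. The untreated counts were 418, 509 and 820 in heterozygous mice, against 214, 252 and 215 in wild-type mice. Only the untreated groups did not overlap. Its log2 fold changes were 0.40 ± 0.40 under gemcitabine (edgeR adjusted p = 0.917) and 1.30 ± 0.41 without it (SE), and the treated one was -0.029 with the Y-linked covariate. The copy Trim34b had 124, 69 and 131 counts in heterozygous gemcitabine tumours, against 160, 114 and 355 counts in wild-type gemcitabine tumours. In untreated tumours Trim34b had 88, 27 and 17 counts in heterozygous mice, against 131, 192 and 123 counts in wild-type mice. Its log2 fold changes were -1.12 ± 0.63 under gemcitabine (edgeR adjusted p = 0.765) and -1.77 ± 0.64 without it (SE).

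The shares of these copies did not overlap between the genotypes either. Trim34a held 75.7%, 86.4% and 79.8% of the pair in heterozygous gemcitabine mice, against 54.7%, 64.3% and 59.7% in wild-type gemcitabine mice (exact two-sided permutation p = 0.1, the smallest possible). It held 82.6%, 94.96% and 98.0% in heterozygous untreated mice, against 62.0%, 56.8% and 63.6% in wild-type untreated mice. The sum of the pair had a treated log2 fold change of -0.04 ± 0.39 (SE, edgeR adjusted p = 0.994), and 0.63 without wild-type gemcitabine mouse 3. The untreated value was 0.68 ± 0.39 (SE).

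Trim6, which in human cells makes ubiquitin chains that activate the interferon kinase IKK-epsilon, shared no 75-base window with the other cluster genes (ENSMUSG00000072244, chr7:104218793-104235152, plus strand). It had 355, 136 and 320 counts in heterozygous gemcitabine tumours, against 339, 545 and 537 counts in wild-type gemcitabine tumours. As CPM it was lower in every heterozygous tumour, at 3.45 to 7.22 CPM in heterozygous and 7.49 to 12.2 CPM in wild-type gemcitabine tumours. In untreated tumours it had 636, 226 and 446 counts in heterozygous mice, against 497, 205 and 466 counts in wild-type mice, and the groups overlapped. Its log2 fold changes were -0.97 ± 0.46 under gemcitabine (edgeR adjusted p = 0.687) and 0.15 ± 0.46 without it (SE), and the treated one turned to 0.36 with the Y-linked covariate.

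**Figure D3:**
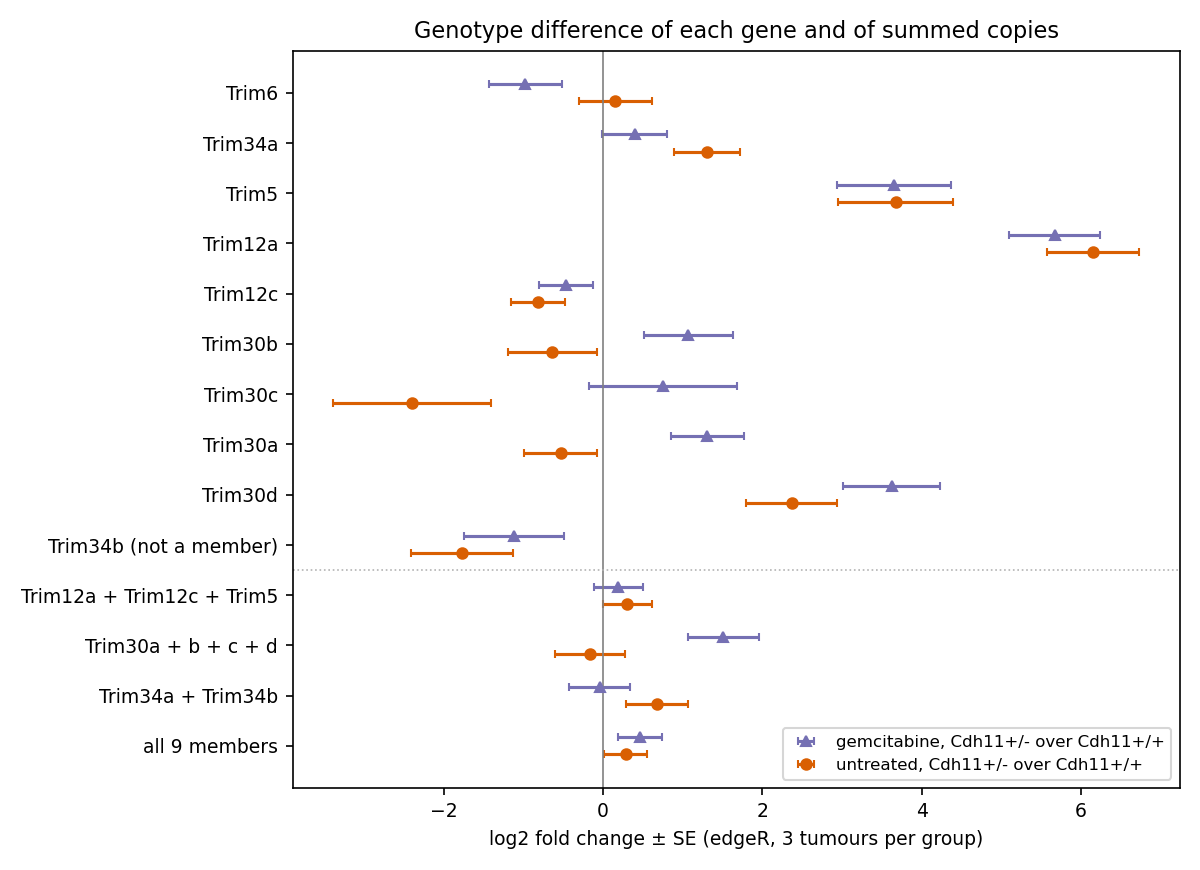
Log2 fold change of heterozygous over wild-type tumours with its standard error for each cluster gene, for Trim34b and for the sums of copies, under gemcitabine (triangles) and untreated (circles). Trim12a stood at 5.67 and 6.15, while the sum of Trim12a, Trim12c and Trim5 stood at 0.19 and 0.30.

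Across the cluster under gemcitabine, 7 of 9 log2 fold changes were above 0 and their median was 1.07, beside -0.03 over all genes tested. Groups without overlap in CPM were found for 5 of 9 genes, 4 higher (Trim12a, Trim5, Trim30a and Trim30d) and 1 lower (Trim6), where 14.7% of all genes did not overlap, 11.3% being higher and 3.4% lower. In untreated tumours 4 of 9 did not overlap, all higher (Trim12a, Trim5, Trim30d and Trim34a), where 15.3% of all genes did not, 7.04% being higher and 8.22% lower. Trim12a, Trim5 and Trim30d did so in the same direction in both comparisons, as did 0.723% of all genes. The summed counts of the 9 genes were 3392, 3609 and 4872 in heterozygous gemcitabine tumours, against 2228, 2226 and 3398 in wild-type gemcitabine tumours. Without the drug the sum was 2952, 2791 and 4204 in heterozygous tumours, against 2273, 3403 and 2182 in wild-type tumours. The treated log2 fold change was 0.46 ± 0.28 (SE, 95% interval -0.14 to 1.07), and -0.013 with the Y-linked covariate. The untreated one was 0.28 ± 0.28 (SE).

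Gemcitabine itself was set against no treatment within each genotype, as a description, since both comparisons use the untreated mice. In heterozygous tumours Trim30a, Trim30b and Trim30c were higher in CPM in every tumour with the drug than in any without it, and Trim30d overlapped. Trim30a differed by 1.21 ± 0.46, Trim30b by 1.51 ± 0.57, Trim30c by 2.10 ± 0.99 and Trim30d by 0.44 ± 0.54 (log2, SE), and the Trim30 sum by 1.06 ± 0.44. In wild-type tumours the Trim30 sum differed by -0.62 ± 0.44 (SE), and by 0.19 without wild-type untreated mouse 2. Groups without overlap were found for 4 of 9 genes in heterozygous mice, all higher (Trim12c, Trim30a, Trim30b and Trim30c), where 12.8% of all genes did not overlap, 8.63% being higher and 4.13% lower. In wild-type mice 0 of 9 did not overlap, where 12.9% of all genes did not, 5.73% being higher and 7.21% lower. Trim12a differed by -0.64 ± 0.46 in heterozygous and -0.16 ± 0.54 in wild-type tumours (SE), and the sum of Trim12a, Trim12c and Trim5 by 0.13 ± 0.31 in heterozygous and 0.24 ± 0.31 in wild-type tumours (SE). The difference of the drug effects between genotypes was not tested.

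Per kilobase of exon, the order of the levels differed between the genotypes. The length was that of all annotated exons of a gene joined, 5781 bases for Trim12a and 3740 for Trim12c. The protein-coding transcripts of Trim12a held only 2210 distinct 75-base windows, against 3696 for Trim12c. The rank of Trim12a thus depends on the length used, and a shorter one would raise it. In heterozygous gemcitabine tumours Trim12c (6.25 ± 1.30 CPM per kb) and Trim30a (6.25 ± 2.34 CPM per kb) were first and did not differ beyond their spread, followed by Trim34a at 3.90 ± 0.758, Trim12a at 1.81 ± 0.283 and Trim30d at 1.77 ± 0.637 CPM per kb (SD, n = 3). In wild-type gemcitabine tumours Trim12c led at 7.78 ± 3.29 CPM per kb, and Trim12a was last of the 9 at 0.0320 ± 0.0197 CPM per kb (SD, n = 3). In untreated tumours Trim12a had rank 3 in heterozygous mice, at 2.63 ± 1.06 CPM per kb, and was last in wild-type mice, at 0.0377 ± 0.0267 CPM per kb (SD, n = 3). Trim30a stood beside it in heterozygous untreated tumours, at 2.51 ± 0.745 CPM per kb, within the spread.

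Promoters of the cluster were searched for the core of the interferon-stimulated response element (GAAA, any 2 bases, GAAA) on both strands, in RefSeq windows of 250 bases before to 50 after the start (GRCm38.p6). It occurred in 6 of the 9 genes and in 3.44% of 32851 promoters of the same length. The matches are printed because they are shared between genes whose genotype groups were apart and genes whose groups overlapped. Each line gives the 30 bases around the match on the strand of the gene, with the match, read here as its reverse complement, in capitals.

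Trim34a, chr7:104244457-104244486, plus strand: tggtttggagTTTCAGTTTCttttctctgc
Trim5, chr7:104288136-104288165, minus strand: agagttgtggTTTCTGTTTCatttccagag
Trim12a, chr7:104315466-104315495, minus strand: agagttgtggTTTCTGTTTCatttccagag
Trim12c, chr7:104353359-104353388, minus strand: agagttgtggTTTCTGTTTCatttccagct
Trim30a, chr7:104465210-104465239, minus strand: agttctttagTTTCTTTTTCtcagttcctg
Trim30d, chr7:104507871-104507900, minus strand: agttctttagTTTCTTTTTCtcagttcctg

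The 30 bases were identical in Trim5 and Trim12a and identical in Trim30a and Trim30d, so these matches are not independent of each other. Trim30a held a second match in its other RefSeq promoter window. No match was found in these windows of Trim6, Trim30b and Trim30c. The Trim30b window, chr7:104358597-104358896, lies inside the gene as GENCODE gives it. On this minus strand the GENCODE start of Trim30b is at base 104369884, and the bases before it were not searched. The STAT motif (TTC, any 3 bases, GAA), also searched on both strands, occurred in 1 of the 9 genes, Trim30c, and in 8.30% of all promoters. Trim12c and Trim12a both carry the interferon motif.

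The listed genes of the pathway outside the cluster did not pass the test under gemcitabine. For these lists and the markers below, the shares over all genes were 7.55% with an unadjusted p under 0.05 and 0.972% called by DESeq2. Of 53 other TRIM genes 49 were tested, 0 were called by edgeR or by DESeq2, 5 had an unadjusted p under 0.05, and 21 had a log2 fold change above 0 (median -0.06). The smallest p-values belonged to Trim8 at -0.55 ± 0.21, Trim67 at -1.91 ± 0.73, Trim2 at -0.79 ± 0.32 and Pml, the nuclear body protein, at -0.51 ± 0.21 (log2, SE). Of 34 interferon-stimulated genes 0 were called by either tool, 2 had an unadjusted p under 0.05, and 10 lay above 0 (median -0.31). Wild-type gemcitabine mouse 3 was the highest of its group in this list, and without it 23 of 34 lay above 0 (median 0.23). Cxcl10, a T cell chemokine, was at 0.917 ± 0.327 CPM in heterozygous and 7.25 ± 10.3 CPM in wild-type gemcitabine tumours (SD, n = 3 each). The other 3 with the smallest p were Usp18 at -2.81 ± 1.25, Irf7 at -1.70 ± 0.81 and Xaf1 at -1.06 ± 0.54 (log2, SE). In untreated tumours 33 of the 34 lay above 0 (median 1.29, beside 0.04 over all genes), which rests on heterozygous mouse 3: without it 18 of 34 lay above 0, with a median of 0.12. The summed levels were 325, 223 and 946 CPM in heterozygous untreated mice, against 281, 341 and 166 CPM in wild-type untreated mice. Leaving out these libraries was chosen after the values were seen.

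Of 19 signalling partners of TRIM proteins 0 were called by edgeR or DESeq2, 4 had an unadjusted p under 0.05, and 10 lay above 0 (median 0.08). Those 4 were the inflammasome sensor Nlrp3 at 1.05 ± 0.36, the kinase Ikbke at 1.14 ± 0.47, the protease Casp1 at 1.04 ± 0.44 and Tmem173, which encodes STING, at 0.90 ± 0.39 (log2, SE, edgeR adjusted p between 0.561 and 0.648). Nlrp3 was at 12.8 ± 1.24 CPM in heterozygous and 5.57 ± 1.07 CPM in wild-type gemcitabine tumours (SD, n = 3 each).

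Under gemcitabine the macrophage sums did not overlap between the genotypes, nor did the Trim30 sums, while the T cell and B cell sums overlapped. The margin of the macrophage sums was narrow, and 14.7% of all single genes did not overlap in this comparison. The summed level of 10 macrophage markers was 1761 to 3338 CPM in heterozygous and 724 to 1649 CPM in wild-type gemcitabine tumours, and 793 to 1337 CPM in heterozygous and 1059 to 4369 CPM in wild-type untreated tumours. All 10 markers were detected in every library, and 10 of 10 were above 0 in log2 fold change under gemcitabine and 0 of 10 without the drug (0 called by edgeR or DESeq2, 3 with an unadjusted p under 0.05). The sum of 8 T cell markers was 2.68, 31.2 and 29.3 CPM in heterozygous gemcitabine mice, against 3.11, 1.82 and 2.21 CPM in wild-type gemcitabine mice. It was 3.53 to 15.1 CPM in heterozygous and 2.37 to 10.7 CPM in wild-type untreated tumours, where up to 3 of the 8 markers were at 0 in a library. Of the 8, edgeR called 0 and DESeq2 called 2, Cd3e and Cd28, and 7 had an unadjusted p under 0.05. The 5 B cell markers summed to 0.976 to 43.0 CPM in heterozygous and 0.547 to 3.77 CPM in wild-type gemcitabine tumours. The wild-type untreated mouse with the high Trim30a count, mouse 2, had the highest macrophage sum of all, 4369 CPM. In bulk tumour RNA, more cells of a type and more RNA per cell cannot be told apart, and the part of the immune markers in the Trim30 values was not tested.

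Markers of other cells in the tissue were summed too, and under gemcitabine their sums overlapped between the genotypes. The 10 acinar markers summed to 5.06 to 10.4 CPM in heterozygous and 5.19 to 199 CPM in wild-type gemcitabine tumours, and to 6.24 to 33.5 CPM in heterozygous and 9.40 to 454 CPM in wild-type untreated tumours. Under gemcitabine 0 of 10 were above 0 (median log2 fold change -5.33), 7 had an unadjusted p under 0.05, edgeR called 0 and DESeq2 called Ctrb1 lower, while without the drug 1 of 10 was above 0 (median -8.89). Up to 7 of the 10 were at 0 in a library. The 8 duct and tumour epithelium markers summed to 3834 to 4797 CPM in heterozygous and 4441 to 8622 CPM in wild-type gemcitabine tumours, with 1 of 8 above 0 (median -0.57), none called by edgeR and Cdh1 called lower by DESeq2. Without the drug 8 of 8 were above 0 (median 0.33), and the sums were 4453 to 5666 CPM in heterozygous and 3406 to 4530 CPM in wild-type tumours. The 7 fibroblast markers summed to 4232 to 8080 CPM in heterozygous and 5397 to 14723 CPM in wild-type gemcitabine tumours, and to 4225 to 6434 CPM in heterozygous and 10684 to 15125 CPM in wild-type untreated tumours. Of the 7, 3 were above 0 under gemcitabine (median -0.18) and 0 without it (median -1.32). The 5 endothelial markers summed to 210 to 311 CPM in heterozygous and 174 to 249 CPM in wild-type gemcitabine tumours. Untreated, they summed to 144 to 196 CPM in heterozygous and 261 to 480 CPM in wild-type tumours, without overlap. All 5 were above 0 under gemcitabine (median 0.30) and 0 without it (median -0.83). The sums of 5 erythroid markers overlapped in both comparisons. The part of these cells in the values of the cluster was not tested.

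Over the 12 libraries, log2(CPM + 1) of the Trim30 sum correlated with the mean level of the T cell markers at r = 0.88 (Spearman's rho = 0.86), and at r = 0.72 without the 2 libraries farthest from the median. With the macrophage markers it was r = 0.80 (rho = 0.69), and 0.62 without the 2 farthest libraries. The sum of Trim12a, Trim12c and Trim5 correlated most with the interferon-stimulated genes, at r = 0.72 (rho = 0.75), and 0.69 without the 2 farthest libraries, against r = 0.31 (rho = 0.23) with the macrophage markers. These are 4 of 6 relations computed, over libraries of 4 groups, and are given as a description without a p-value because the genes were chosen with results of these libraries known. Of the other two, the Trim30 sum and the interferon-stimulated genes gave r = 0.23 (rho = 0.31), and 0.74 without the 2 farthest libraries. The sum of Trim12a, Trim12c and Trim5 and the T cell markers gave r = 0.61 (rho = 0.58), and 0.57 without them.

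**Figure D4:**
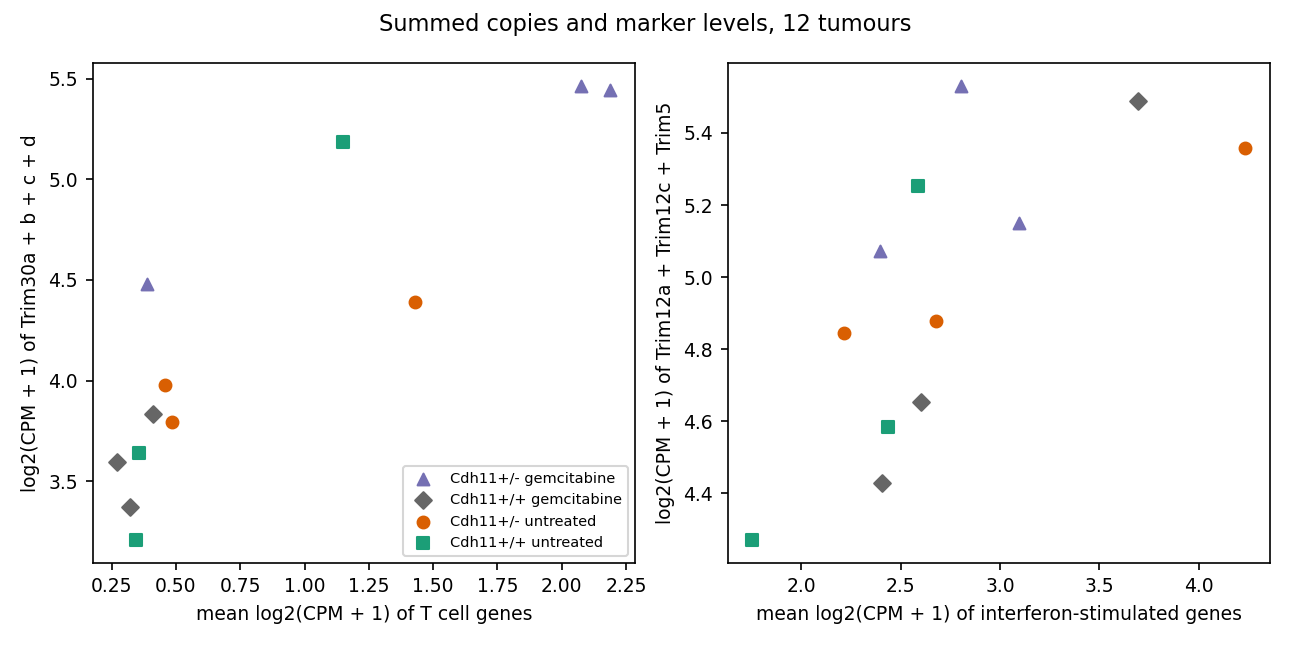
Log2(CPM + 1) of the Trim30 sum against the mean of 8 T cell markers (left), and of the sum of Trim12a, Trim12c and Trim5 against the mean of 34 interferon-stimulated genes (right), 1 point per tumour. The relations over the 12 tumours had r = 0.88 (left) and r = 0.72 (right).

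The likeness of single genes was read from Pearson's r of log2 CPM over the 12 libraries. The 5 genes most like Trim12a were Trim30d (r = 0.95), Trim5 (r = 0.93), H2-T23 (r = 0.92), a gene of the major histocompatibility complex, 2210408F21Rik (r = 0.90) and the ribosomal protein gene Rps13 (r = 0.89). The 5 most like Trim30a were Gm8995 (r = 0.98), Dock10 (r = 0.98), Tmem273 (r = 0.97), Adcy7 (r = 0.97) and Ptprc (r = 0.96), which encodes the leukocyte antigen CD45. Trim12a and Trim30a themselves had r = 0.38, and Trim12a and Trim12c r = -0.59. All these values share their libraries and are descriptive.

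Other genes of the chromosome 7 region were set beside the cluster. Within its span 3 further genes were tested, Trim34b and the processed pseudogenes Gm8667 and Gm16464. None of them was called under gemcitabine by edgeR or DESeq2, and 1 had an unadjusted p under 0.05. Among all 268 other tested genes inside the cluster or within 10 Mb of it, 0 were called by edgeR, 17 had an unadjusted p under 0.05 and DESeq2 called 3, Mogat2, Gm18853 and Gm1966. Of all genes tested, 7.55% had an unadjusted p under 0.05 and DESeq2 called 0.972%, so both counts were near these shares. The largest treated fold changes among these neighbours lay 1.65 to 2.09 Mb beyond the cluster, in Gvin1, a gene for a large interferon-inducible GTPase, and in the pseudogenes Gm1966 and Gm18853. Gvin1 had 2124, 4862 and 4598 counts in heterozygous gemcitabine tumours, against 0, 24 and 0 counts in wild-type gemcitabine tumours. In untreated tumours Gvin1 had 762, 2344 and 3618 counts in heterozygous mice, against 1681, 0 and 0 counts in wild-type mice. Wild-type untreated mouse 1 was thus among the high libraries for Gvin1, while its Trim12a count was 7. Gm1966 differed by 7.70 ± 1.38 and Gm18853 by 4.18 ± 0.71 under gemcitabine (log2, SE, edgeR adjusted p = 0.467 for each), and by 1.93 ± 1.04 and 1.08 ± 0.62 without it. Wild-type untreated mouse 1 was the high one of its group here too. Wild-type untreated mice 1, 2 and 3 had 518, 42 and 19 counts of Gm1966 and 380, 92 and 60 of Gm18853. Heterozygous untreated mice had 441, 566 and 1341 counts of Gm1966 and 258, 489 and 430 of Gm18853. Closer in, the processed pseudogene Gm5900, 0.442 Mb away, was at -0.82 ± 0.53 with the drug and -3.04 ± 0.58 without it (log2, SE). It had 3, 24 and 16 counts in heterozygous untreated mice, against 129, 85 and 135 counts in wild-type untreated mice. These neighbours were named after their values were seen.

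**Figure D5:**
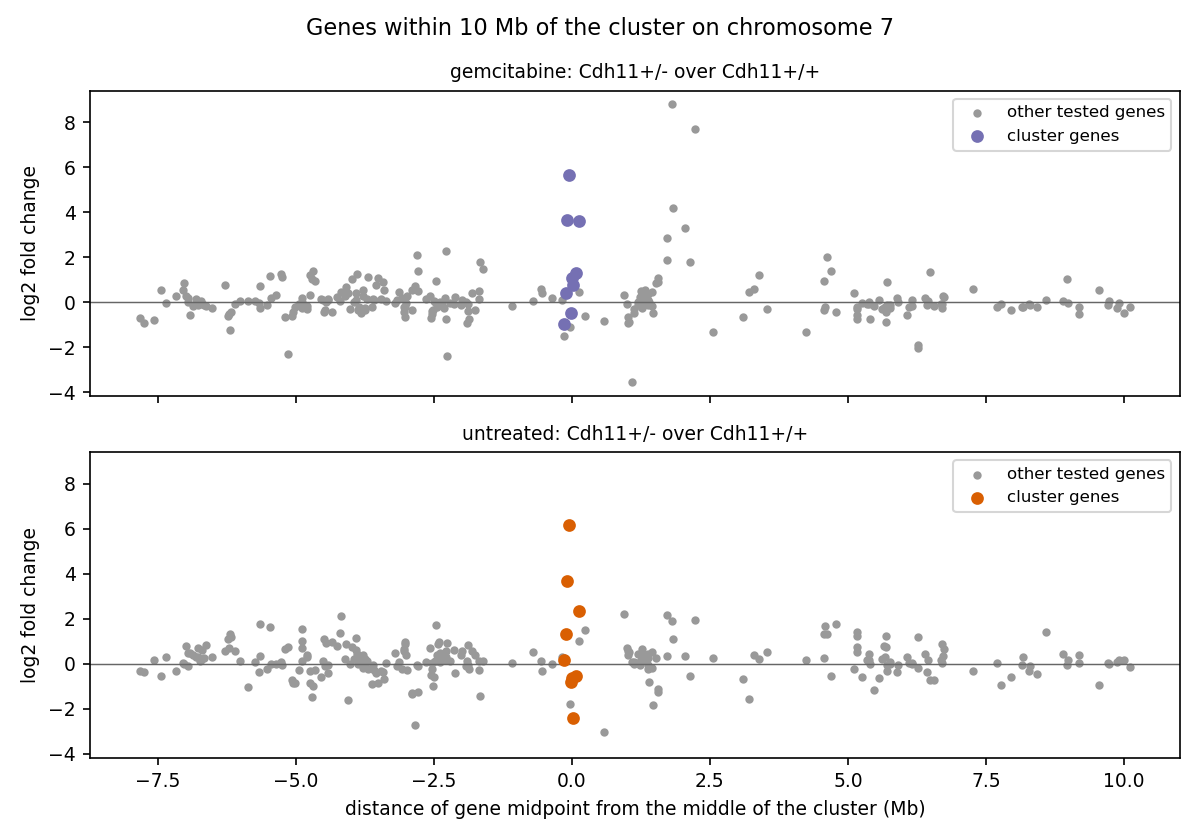
Log2 fold change of heterozygous over wild-type tumours for tested genes within 10 Mb of the cluster on chromosome 7, against distance from its middle in Mb, under gemcitabine (top) and untreated (bottom). Cluster genes are coloured and the 268 other genes grey. Trim12a, at 5.67 and 6.15, is the highest cluster gene in both panels.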

How the data were processed

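RNA of snap-frozen tumours had been made into stranded total RNA libraries after ribosomal RNA depletion, per the labels' protocols. The deposited values are expected counts per Ensembl gene, which the authors made with RSEM on GRCm38, per the submitters' processing notes. All are whole numbers. RSEM's version and strand setting, the aligner and the annotation were not given in the sources used here. The table of all libraries was left unused.

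Groups came from the genotype and treatment labels. Symbols and positions came from GENCODE M21 and matched 52489 of 52636 IDs, and promoters came from RefSeq. All 12 libraries were fitted together with edgeR 4.0.16 in R 4.3.3 (filterByExpr over the groups, TMM, robust quasi-likelihood, 1 mean per group), with Benjamini-Hochberg adjustment over 24065 genes and a threshold of 0.05. TMM factors lay between 0.897 and 1.09, and the biological coefficient of variation was 46.4%. The nearest copies were also summed and refitted as 1 row. A ± is an SE beside a log2 fold change and an SD beside a level or share. CPM is a count scaled to a library total of 1000000, without TMM. The edgeR p-values set a difference against the spread between mice of the same group, pooled over the 4 groups and moderated across genes.

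The genes and gene lists were chosen with earlier results of these data known. The text names all 9 genes and Trim34b. It names the 5 genes most like Trim12a and the 5 most like Trim30a (Pearson, log2 CPM with a prior count of 2). It also names, for each pathway list, the 4 with the smallest treated p. Coding sequences were aligned with MAFFT 7.526. The fit was tested on simulated data first. Alternatives were RLE and upper quartile scaling, DESeq2 1.42.0, no filter, the 6 gemcitabine libraries alone, a replicate block, a Y-linked covariate and each library left out.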

Additional observations from a re-analysis of the deposited data

How the results depend on the processing

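The number of cluster genes called under gemcitabine was 1 with edgeR and also with RLE or upper quartile scaling, with no filter and with the 6 gemcitabine libraries alone. DESeq2 called 3, adding Trim5 (log2 fold change 3.68, adjusted p = 7.7e-05) and Trim30d (3.64, adjusted p = 3.1e-07), and it called 234 genes in all against 1 with edgeR. The 6 gemcitabine libraries alone gave 12 genes in all. With the Y-linked covariate 0 cluster genes were called, and leaving out 1 library gave 0 to 1 of them and 0 to 4 genes in all. Labels number the mice 1 to 3 in each group, but same-numbered mice deviated together with correlations of only -0.25 to 0.17, and 3 of 12 libraries correlated best with one of their own number. The numbers were not taken to pair the mice. A fit with the number as a replicate block called 0 cluster genes (Trim12a 5.62, adjusted p = 0.176) and 0 genes in all, and turned the sum of Trim34a and Trim34b to 0.057.

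With the Y-linked covariate the sum of Trim12a, Trim12c and Trim5 was -0.31, the sum of all 9 -0.013, Trim30c -2.32, Trim34a -0.029 and Trim6 0.36, all of the opposite sign to the values without it. The slope of the covariate rests largely on the untreated tumours, and the cause was not tested. With 1 library left out, the log2 fold change ran from 0.01 to 0.61 for the sum of Trim12a, Trim12c and Trim5, from 1.37 to 1.75 for the Trim30 sum, from 0.33 to 0.73 for the sum of all 9 and from -0.30 to 0.63 for the sum of Trim34a and Trim34b. The log2 fold changes given without a test were refitted for Trim12a and for the Trim12 with Trim5, Trim30 and 9-gene sums only. Of 180 such refits, 175 moved by less than the spread between replicates. Counts of 4 to 24 in wild-type tumours limit the precision of the Trim12a and Trim5 fold changes.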
